A study of Mus musculus with 447 samples.

Results

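The cells described here were fetal mouse pancreas cells that carried little glucagon RNA and little acinar RNA. The cells were chosen by their measured Gcg and Cpa1: a cell was taken when it held under 1000 CPM of Gcg, the glucagon gene, and under 1000 CPM of Cpa1, the acinar enzyme carboxypeptidase A1. CPM are reads of a gene per 1000000 reads of that cell, without spike-in reads. The rule left 55 of 447 cells, called Gcg-low cells below. They were divided at 50 CPM of Sox9, a transcription factor of pancreatic progenitors and ducts, and at 100 CPM of Fev, a transcription factor of endocrine precursors. The Fev class (Fev above its limit and Sox9 below) held 13 cells, the Sox9/Fev class (both above) 10, the class with neither 15, and the Sox9 class (Sox9 above and Fev below) 17. They were set against the 348 cells with at least 1000 CPM of Gcg, called Gcg cells. The other 44 cells reached the Cpa1 limit only and serve as acinar cells where a background level is given.

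All cells came from E15.5 embryos, were GFP-positive and were profiled by Smart-seq3, a plate method that reads polyadenylated RNA of sorted single cells. The genotypes were Pdx1CreNgn3KONeurod1OE (here Ngn3KO) and Pdx1CreNeurod1OE (here Neurod1OE). The series' text gives them as Pdx1CreER;Ngn3fl;Neurod1OE and Pdx1CreER;Neurod1OE: both share an inducible Cre driven by Pdx1 and the overexpression of Neurod1, and only Ngn3KO carries the floxed Ngn3 (Neurog3) allele. The series concerns how the order in which Ngn3 and Neurod1 are expressed bears on endocrine development. The titles number a set 2 and a set 3 without saying what a set is, and no animal or litter is named. Wild-type cells were not analysed here, so every value below comes from mice that carry the Neurod1 overexpression.

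Endocrine cells of the pancreas arise from a Sox9-positive epithelial trunk, which also forms the ducts. Trunk cells that switch on Neurog3 leave the cell cycle, pass through a stage marked by Btbd17 and Hes6 and then through a stage marked by Fev and Pax4, and end as hormone cells that carry Isl1, Pax6 and secretory granules. Notch signalling, through Hes1, holds trunk cells back from Neurog3. Neurog3 and Neurod1 are basic helix-loop-helix factors that bind E-boxes, short DNA elements of the form CANNTG, where N is any base.

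Gcg-low cells were nearly all Neurod1OE cells of set 3. They made up 1.46% of the Ngn3KO cells of set 2 (3 cells, exact Clopper-Pearson interval 0.303 to 4.22%), against 3.42% of the Neurod1OE cells of set 2 (4 cells, 0.939 to 8.52%). In set 3 they made up 0 of 30 Ngn3KO cells (a count of 0 allows up to 3 counts, or 10%), against 48 of 95 Neurod1OE cells (50.5%, 40.1 to 60.95%). Since the labels name no animals, each genotype and set counted as 1 sample, no test was run, and no p-value is given. Intervals cover counting error only. All comparisons of genes below use the 48 Gcg-low cells (11 of the Fev class, 9 of the Sox9/Fev class, 13 with neither and 15 of the Sox9 class) and the 32 Gcg cells of Neurod1OE set 3.

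Gcg-low cells had a median of 587830 reads and Gcg cells 777270 reads. Medians of the classes were 764324 reads (Fev), 289525 (Sox9/Fev), 476158 (neither) and 811542 (Sox9), and 3 Gcg-low and 4 Gcg cells lay under 100000 reads. At an equal 165298 reads a cell, Gcg-low cells showed a median of 6684 genes and Gcg cells 7823. Sex, read from Xist against Y-linked genes, was female in 15 and male in 33 Gcg-low cells, and female in 5, male in 25 and not called in 2 Gcg cells. By class, females and males numbered 1 and 10 (Fev), 4 and 5 (Sox9/Fev), 7 and 6 (neither) and 3 and 12 (Sox9). In Neurod1OE set 3 the females bear the title numbers 1 to 29 and the males 30 to 95, so sex and title number cannot be told apart. The 447 count profiles were all distinct.

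The values that chose the cells are a description only. Gcg ranged over 0, 60.6 and 897 CPM (lowest, median and highest) in Gcg-low cells, against 2286, 43011 and 133108 CPM in Gcg cells. The median of Gcg-low cells was close to the 53.03 CPM of the 15 acinar cells of the same genotype and set. Acinar cells lay under the same Gcg limit by definition, so their low Gcg is no finding. Over all 447 cells, the nearest Gcg values inside the limit were 978, 969 and 897 CPM and the nearest outside were 1006 and 1073 CPM. For Cpa1 they were 801 CPM inside and 1016 CPM outside. The nearest Sox9 values were 47.7 CPM below and 57.7 CPM above its limit, and the nearest Fev values were 91.4 and 102.7 CPM.

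**Figure D1:**
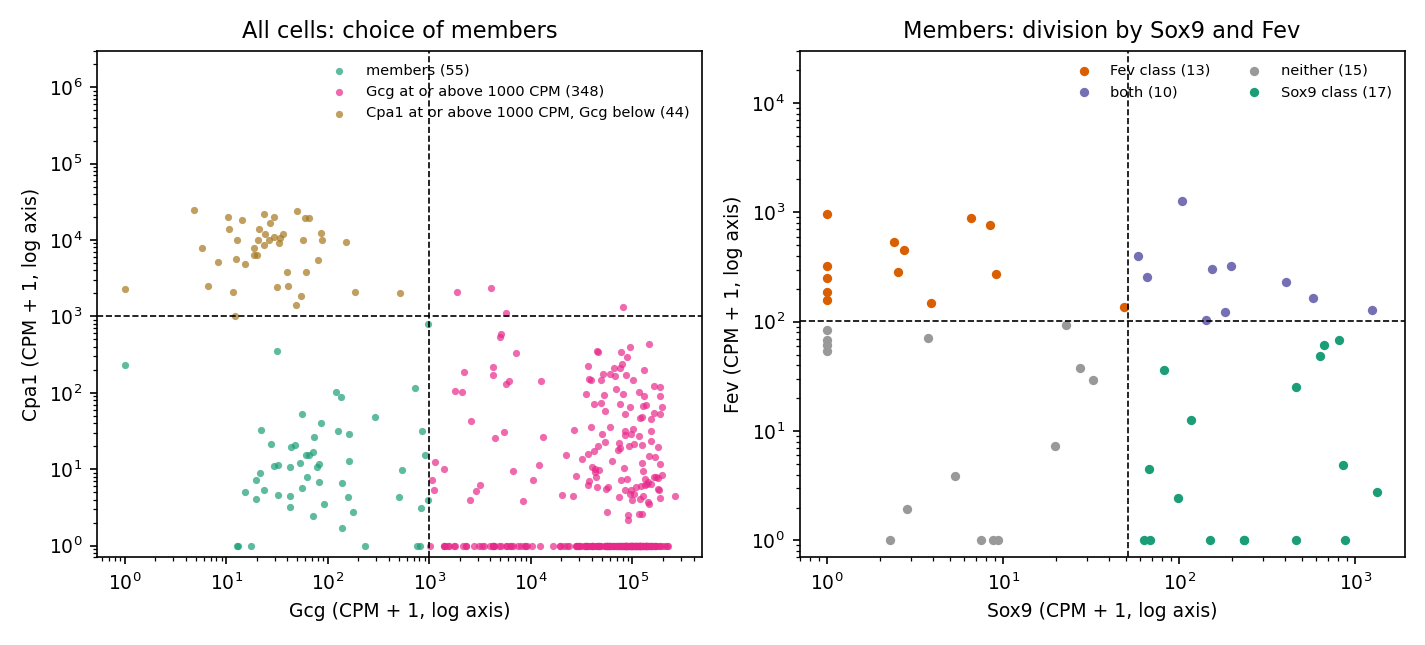
Left, Cpa1 against Gcg in all 447 cells; right, Fev against Sox9 in the 55 Gcg-low cells (members in the legend), as CPM + 1 on log axes, with dashed lines at the limits of 1000, 50 and 100 CPM. Gcg-low cells fill the lower left corner of the left panel, and on the right they spread over all 4 quadrants, with 13, 10, 15 and 17 cells.

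Not every Gcg-low cell carried progenitor or precursor markers. At levels chosen after the values were seen, 38 of 48 Gcg-low cells reached 100 CPM of Hes6 (13 of 32 Gcg cells), 21 reached 100 CPM of Btbd17 (1 of 32), 11 reached 1000 CPM of Spp1 (0 of 32), 11 reached 50 CPM of Pax4 (1 of 32) and 4 reached 50 CPM of Neurog3 (2 of 32). By contrast, 15 of 48 carried at least 1000 CPM of another hormone (31.2%, 18.7 to 46.3%), and 2 carried the Schwann cell gene Sox10 at 50 CPM or more. The name progenitor or precursor thus holds for part of these cells, and they are called by their rule here.

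Across genes, the summed counts of Gcg-low cells were set over those of Gcg cells. A sum pools cells, so more cells with reads and more reads per cell cannot be told apart in it, and cell values are given with it. Of 10561 genes that had 10 CPM or more and were detected in 20% or more of the cells of either group, 1879 (17.8%) were at least 2-fold higher in Gcg-low cells and 1283 (12.1%) at least 2-fold lower, after adding 1 CPM. TMM scaling (edgeR) lowers each of these log2 ratios by 0.13 and DESeq2 scaling by 0.15, giving 1562 higher and 1524 lower genes, or 1524 and 1556. The median log2 ratio of all 10561 genes was 0.16.

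Genes of the trunk and duct were higher in some Gcg-low cells. Spp1, which encodes the secreted duct protein osteopontin, had 0, 44.01 and 15341 CPM (lowest, median and highest) in Gcg-low cells, against 4.97, 18.9 and 428 CPM in Gcg cells. Most cells of both groups overlapped, and 12 Gcg-low cells stood above every Gcg cell. In the sums Spp1 reached 2100 CPM (exact Poisson interval 2084 to 2116) against 27.1 CPM (25.03 to 29.3), a log2 ratio of 6.22 (4.01 over both genotypes and sets). Onecut2, a transcription factor of the trunk and liver, had a log2 ratio of 2.41, with medians of 9.97 CPM in Gcg-low and 10.9 CPM in Gcg cells, so its difference lay in a minority of cells. Of 21 duct and trunk genes, 14 were measured, 8 were higher and 2 (the keratins Krt7 and Krt8) lower, with a median log2 ratio of 1.21 in the sums. The typical cell ran the other way: summed over the 21 genes, Gcg-low cells had 29.2, 928.8 and 18852 CPM (lowest, median and highest), against 947.6, 1588 and 2797 CPM in Gcg cells. Hes1, the repressor driven by Notch, had 13 of 48 Gcg-low cells at 50 CPM or more and 3 of 32 Gcg cells, and a log2 ratio of 2.65. That ratio was 6.96 among female cells, of which only 5 were Gcg cells, and 2.02 among male cells.

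Genes of the Neurog3 stage were higher in Gcg-low cells. Btbd17, a BTB-domain protein known as a mark of Neurog3-expressing cells, had 0, 85.8 and 740 CPM in Gcg-low cells, against 0, 22.99 and 111.2 CPM in Gcg cells, with a log2 ratio of 2.81. Hes6, a HES-family factor that counters Hes1, had 2.04, 214.7 and 1482 CPM in Gcg-low cells, against 0, 95.9 and 197.98 CPM in Gcg cells, with a log2 ratio of 1.69 (0.67 among female cells). For both genes the ranges overlapped at the low end, and the highest Gcg-low cells lay several-fold above the highest Gcg cell. Of 18 genes listed for the stage, 17 were measured, 11 were at least 2-fold higher and 0 lower, with a median log2 ratio of 1.41. The higher genes included Cdkn1a, a cell cycle inhibitor, Sox4, a transcription factor of endocrine progenitors, and Rcor2, a corepressor.

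Neurog3 itself was rare. It had reads in 10 of 48 Gcg-low cells and 8 of 32 Gcg cells, and its median was 0 CPM in both. The highest values were 3053 CPM among Gcg-low cells and 203.8 CPM among Gcg cells. A log2 ratio of 2.58 rested mostly on the top cell, which held 77.9% of the reads, and was 1.20 without the top cell of each group. Pax4, which favours beta and delta cell fate, had reads in 21 of 48 Gcg-low and 8 of 32 Gcg cells, with highest values of 846 and 99.6 CPM and a log2 ratio of 3.70.

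Neurod1, the gene overexpressed in these mice, did not pass the 2-fold limit. It had 0, 188.5 and 1014 CPM in Gcg-low cells, against 14.7, 212.5 and 772 CPM in Gcg cells, and a log2 ratio of 0.21 (-0.10 over both genotypes and sets). The ranges overlapped almost fully. Reads of the transgene and of the gene's own transcript cannot be told apart in these counts. Neurod1 lay under 10 CPM in 3 of 48 Gcg-low cells and 0 of 32 Gcg cells.

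Part of the endocrine genes were lower. Of 20 pan-endocrine genes, all measured, 2 were higher and 8 lower (median log2 ratio -0.85), and of 17 genes of secretory granules and exocytosis 1 was higher and 8 lower (-0.86). Chga, the granule protein chromogranin A, had 0, 676 and 8661 CPM in Gcg-low cells, against 608, 2527 and 10195 CPM in Gcg cells, with a log2 ratio of -1.11. The ratio did not reach 2-fold among female cells (-0.35), over both genotypes and sets (-0.19) or with the Cpa1 limit at 2000 CPM (-0.99). Of 10 alpha cell genes without Gcg, 0 were higher and 7 lower, with a median of -2.01. Irx2, a homeobox factor of alpha cells, had medians of 0 and 175.9 CPM and a log2 ratio of -2.89 (-3.67 without the top cell of each group).

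The genes named for the size of their difference included several that are known from immature or matrix-producing cells. Fstl1, a secreted glycoprotein, had 0, 36.01 and 2317 CPM in Gcg-low cells, against 0, 0 and 58.9997 CPM in Gcg cells, and a log2 ratio of 7.58. Sox11, a transcription factor of immature neural and epithelial cells, had 0, 547 and 5527 CPM in Gcg-low cells, against 0, 3.31 and 398 CPM in Gcg cells, with a log2 ratio of 5.46 (6.31 without the top cells). It reached 50 CPM in 39 of 48 Gcg-low cells and 5 of 32 Gcg cells, so this difference ran through most cells of the group. Ebf1, another early transcription factor, behaved alike, at 50 CPM or more in 34 of 48 and 1 of 32 cells, with a log2 ratio of 5.69. At the other end stood Apoa1, an apolipoprotein gene of liver and gut, with no Gcg-low cell above 6.26 CPM and 14 of 32 Gcg cells at 50 CPM or more (log2 ratio -6.70, -3.42 among female cells and -4.23 over both genotypes and sets). Cartpt, a neuropeptide gene, had medians of 12.6 CPM in Gcg-low and 67.6 CPM in Gcg cells and a log2 ratio of -4.20 (-1.15 among female cells and -2.28 over both genotypes and sets).

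**Figure D2:**
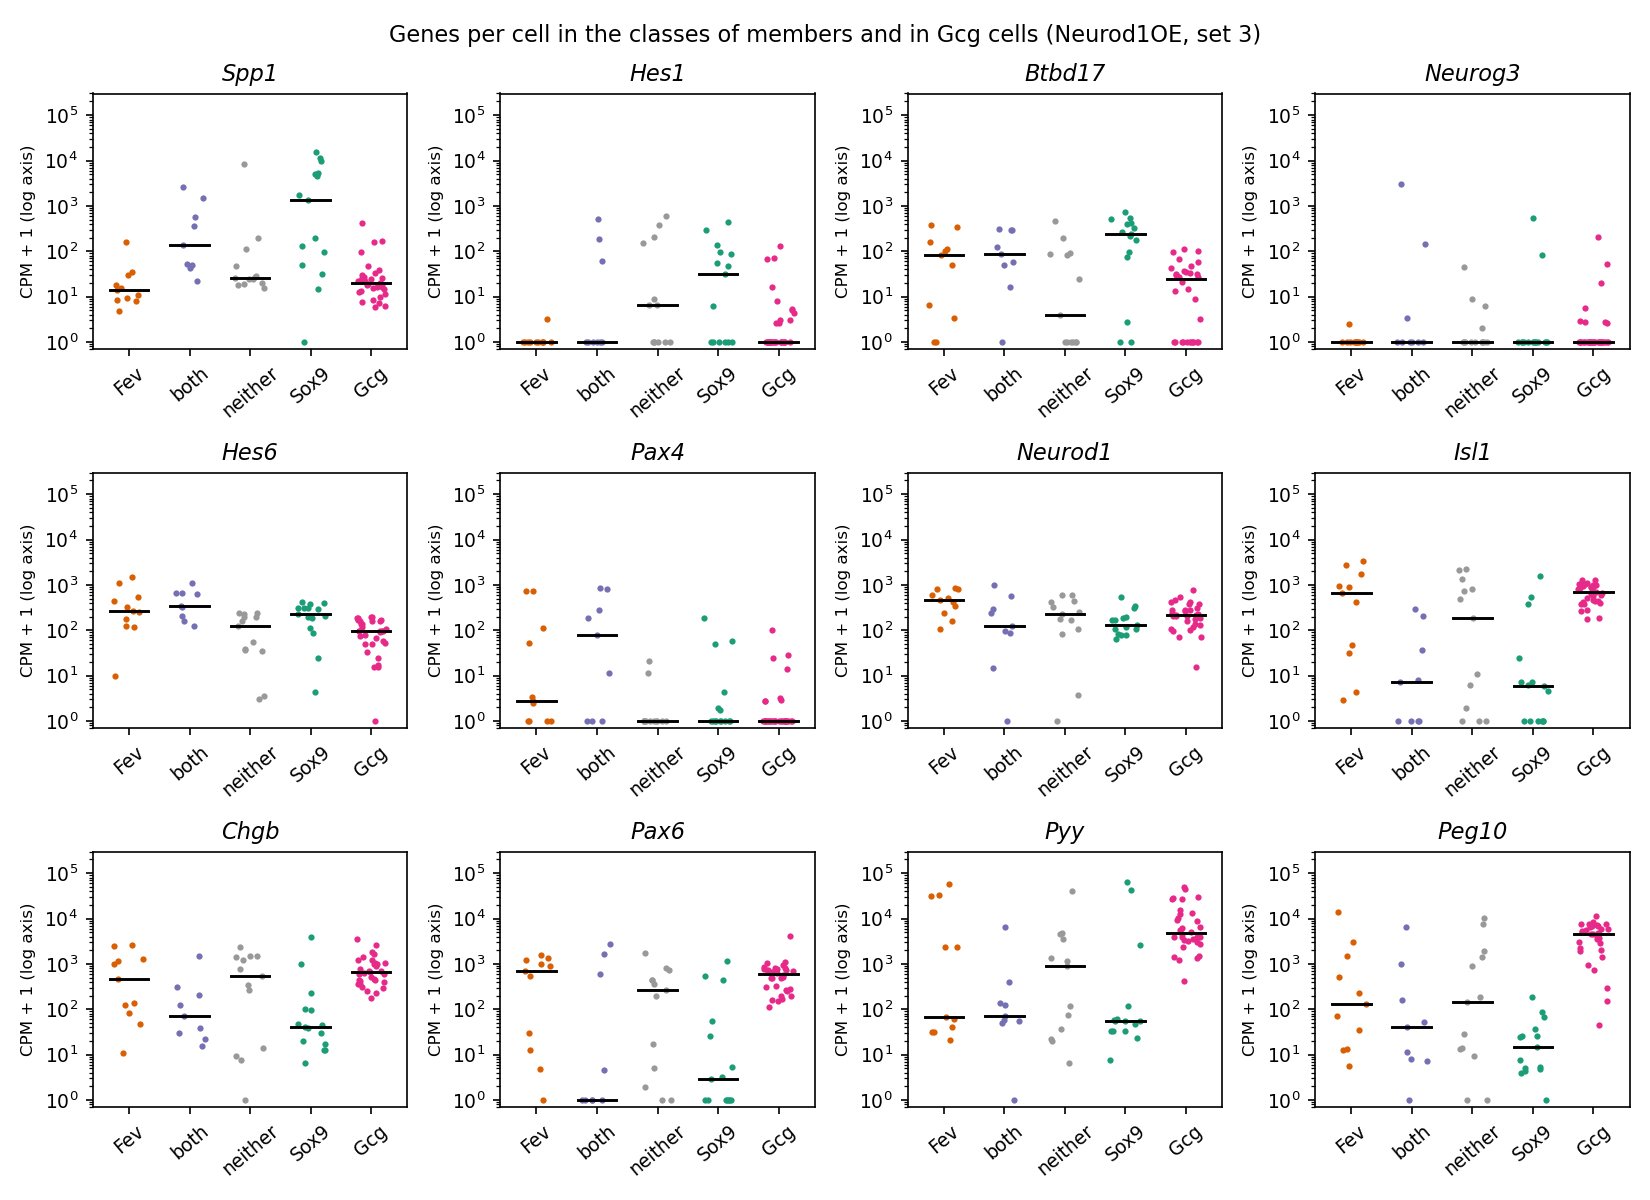
Level of 12 genes in each cell of Neurod1OE set 3, as CPM + 1 on a log axis, for the Fev, Sox9/Fev (both), neither and Sox9 classes and for Gcg cells; short bars are medians. Spp1 is high in part of the Sox9 class, and Isl1 and Chgb are split within the Fev class.

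The Fev class was then set over the Sox9 class. Of 10424 genes measured, 1923 (18.4%) were at least 2-fold higher in the Fev class and 2121 (20.3%) at least 2-fold lower, with a median log2 ratio of -0.02. Sox9 and Fev chose the classes: Sox9 had medians of 1.72 CPM in the Fev class and 461 CPM in the Sox9 class, and Fev 321 and 1.76 CPM. Spp1 is located on chromosome 5 (mm10, 104435118 to 104441050), Fev on chromosome 1 (74881509 to 74885419) and Isl1 on chromosome 13 (116298281 to 116309689). The windows around the starts of these 3 genes (RefSeq, GRCm38.p6, 250 bases before to 50 after the start) are printed because Spp1 and Isl1 differed in opposite directions and Fev defines the class. Capitals mark a match to the E-box CAGCTG or the E-box form CAGATG, whose other strand reads CATCTG. Both strands were searched, and no matches overlap in these windows.
Fev, chr1:74885359-74885658, minus strand: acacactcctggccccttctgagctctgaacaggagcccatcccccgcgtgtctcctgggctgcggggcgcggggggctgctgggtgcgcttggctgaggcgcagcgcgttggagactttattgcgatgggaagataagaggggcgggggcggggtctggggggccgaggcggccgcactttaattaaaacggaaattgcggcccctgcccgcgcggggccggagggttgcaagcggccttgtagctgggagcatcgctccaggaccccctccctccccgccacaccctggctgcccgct
Isl1, chr13:116309639-116309938, minus strand: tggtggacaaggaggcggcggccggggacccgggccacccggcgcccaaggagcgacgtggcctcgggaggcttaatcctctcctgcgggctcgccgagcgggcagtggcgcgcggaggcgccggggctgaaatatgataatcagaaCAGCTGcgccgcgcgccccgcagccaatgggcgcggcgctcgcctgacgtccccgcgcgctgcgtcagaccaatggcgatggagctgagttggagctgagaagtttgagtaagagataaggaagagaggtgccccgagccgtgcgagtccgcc
Spp1, chr5:104434861-104435160, plus strand: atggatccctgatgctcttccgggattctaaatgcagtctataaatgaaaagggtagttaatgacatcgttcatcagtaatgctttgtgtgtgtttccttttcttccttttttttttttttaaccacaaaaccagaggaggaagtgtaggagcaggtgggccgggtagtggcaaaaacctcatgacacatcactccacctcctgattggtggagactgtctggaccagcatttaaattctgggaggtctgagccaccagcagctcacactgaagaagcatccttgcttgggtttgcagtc
Of 32851 such windows, 5355 (16.3%) hold CAGCTG, 5635 (17.2%) hold CAGATG and 10043 (30.6%) hold either. Isl1 holds 1 match, CAGCTG, and the other windows hold none, which says only that these letters are not in them. The Spp1 window is the first of 2 listed for the gene.

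Most trunk and Notch genes were lower in the Fev class. Spp1 had 3.72, 13.1 and 155.7 CPM in the Fev class, against 0, 1325 and 15341 CPM in the Sox9 class, with a log2 ratio of -7.61. Of the Fev cells, 1 of 11 reached 50 CPM, and of the Sox9 cells 11 of 15 did. Of 14 measured duct and trunk genes, 2 were higher and 11 lower (median -1.76). Hes1 had reads in 1 of 11 Fev cells, at 2.22 CPM, and 6 of 15 Sox9 cells reached 50 CPM (log2 ratio -5.97). Lfng, which modifies Notch receptors, had 0 reads in the Fev class (upper limit of its exact interval 0.409 CPM) and 165.2 CPM (157.7 to 172.97) in the Sox9 class. Of 11 measured Notch genes, 1 was higher, Dll4, and 8 were lower, with a median of -3.93.

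Genes of growth and junctions were also lower in the Fev class. Of 16 measured genes of growth factor, WNT and BMP signalling, 2 were higher and 10 lower, among them the FGF receptors Fgfr1 to Fgfr4 and Etv5, a target of FGF signalling (median -1.71). Summed over that list per cell, medians were closer, at 584 CPM in the Fev class and 803 CPM in the Sox9 class. Epithelial junctions had 1 of 14 genes higher and 9 lower, including the adhesion proteins Cdh1 and Epcam (median -1.73). Fmo2, a flavin monooxygenase, had no Fev cell above 8.13 CPM and 7 of 15 Sox9 cells at 50 CPM or more (log2 ratio -8.38). Sparc, a matrix glycoprotein, had 0, 1.11 and 28.5 CPM in the Fev class, against 0, 456 and 2963 CPM in the Sox9 class, with a log2 ratio of -7.85.

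Endocrine genes ran the other way. Of 20 pan-endocrine genes, 16 were higher in the Fev class and 0 lower, with a median log2 ratio of 2.16. Isl1, a LIM-homeodomain factor of all islet cell types, had 1.86, 667 and 3288 CPM in the Fev class, against 0, 4.96 and 1552 CPM in the Sox9 class, with a log2 ratio of 4.18 (2.53 with each cell weighted equally and 5.01 without the top cells). Pax6, a paired-box factor needed for hormone genes, had medians of 708 and 1.97 CPM and a log2 ratio of 3.52 (2.15 with each cell weighted equally and 4.47 without the top cells). Chgb, chromogranin B, had 10.1, 453 and 2570 CPM in the Fev class, against 5.43, 40.7 and 3958 CPM in the Sox9 class, with a log2 ratio of 3.29 (1.18 with each cell weighted equally). The ranges of all 3 genes overlapped, since the Sox9 class held a few cells with high endocrine RNA and the Fev class a few with little.

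The precursor genes split into those shared by both classes and those that were not. Neurod1 had 107.3, 457 and 874 CPM in the Fev class, against 62.8, 130.6 and 536 CPM in the Sox9 class (log2 ratio 1.64), and every cell of both classes reached 50 CPM. Nkx2-2 (log2 ratio 1.65) and Pax4 (2.54), both islet transcription factors, were also higher in the Fev class. Insm1, a zinc finger factor of endocrine differentiation, stood at similar levels, with medians of 217.2 and 167.4 CPM and a log2 ratio of -0.30. Hes6 was higher in the Fev class (medians 262 and 231.1 CPM, log2 ratio 1.24, 0.93 without the top cells and 0.71 with the Fev limit at 50 CPM). Btbd17 was lower (medians 80.8 and 236 CPM, log2 ratio -1.21), but not by 2-fold with the Sox9 limit at 20 CPM (-0.99), the Fev limit at 200 CPM (-0.77) or without cells with other hormones (-0.74). Of 17 measured genes of the Neurog3 stage, 2 were higher and 9 lower, and of 14 genes of the Fev stage 10 were higher and 1 lower. Cdkn1a was among the lower ones, at -1.11, which was -0.70 without the top cells. Of 12 genes of the nerve cell cytoskeleton, which endocrine cells share in part, 8 were higher and 1 lower, and Tagln3, a neuronal calponin-family gene, had a log2 ratio of 4.68 (5.54 without the top cells).

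**Figure D3:**
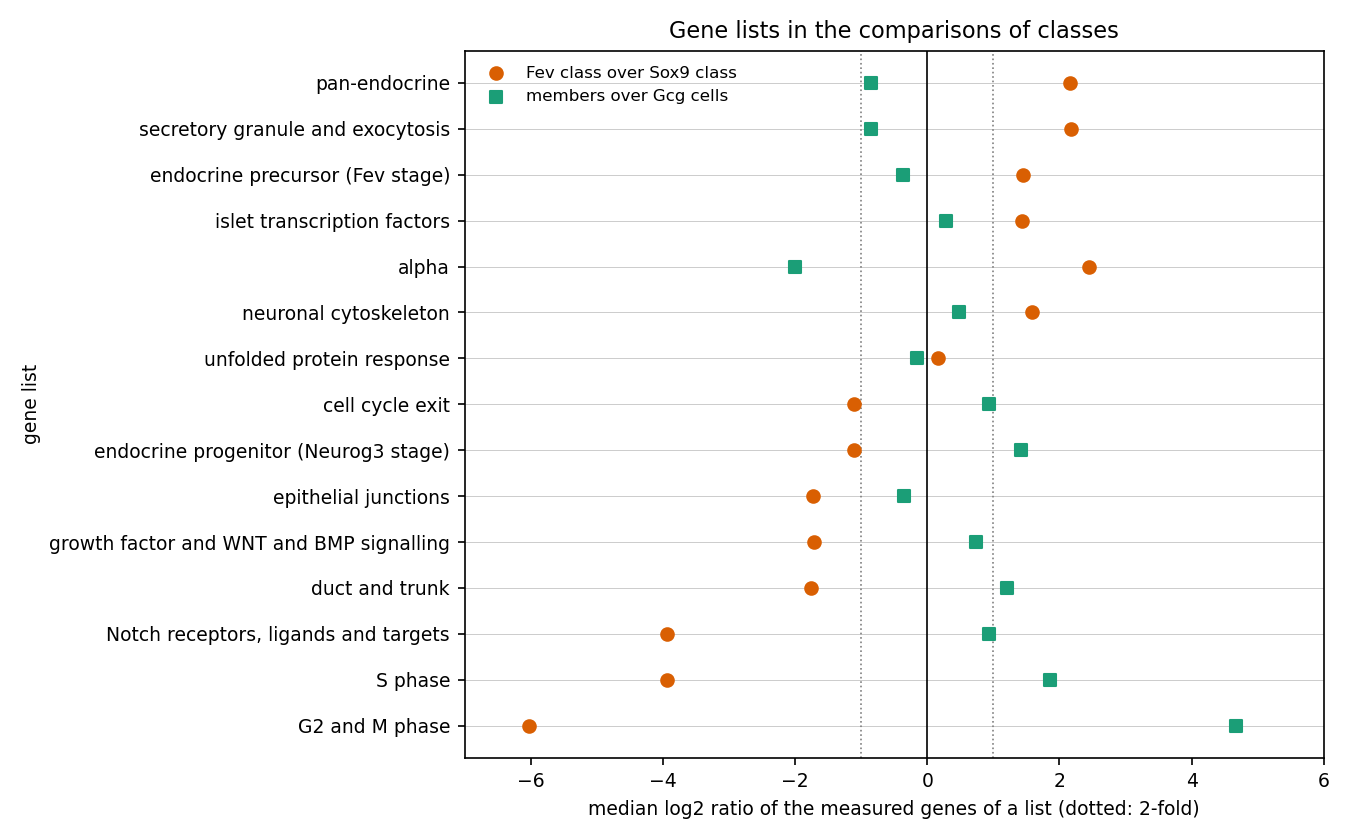
Median log2 ratio of the measured genes of 15 gene lists, for the Fev over the Sox9 class and for Gcg-low over Gcg cells (members over Gcg cells in the legend; horizontal axis in log2 units, dotted lines at 2-fold). The S phase, G2 and M phase and Notch lists have the lowest 3 medians for the Fev over the Sox9 class (-3.94, -6.03 and -3.93). These are ratios of summed counts, and cell values of all 3 lists overlapped between the Fev and Sox9 classes. For Gcg-low over Gcg cells the S phase and G2 and M phase lists have the highest of the 15 (1.86 and 4.67), and the Notch list stays under 2-fold (0.93).

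The Sox9 class was itself mixed. Divided at 1000 CPM of Spp1, a level chosen after the values were seen, 8 cells had 1325, 5124 and 15341 CPM of Spp1 (lowest, median, highest) and 7 cells had 0, 49.4 and 194.03 CPM, with no cell between 194.03 and 1325 CPM. Depth moved with the division: the median total was 1011790 reads in the 8 cells and 344306 reads in the 7, and the part of depth in it was not tested. Some genes followed Spp1 and others did not. Their median was 585 CPM of H19, a growth-linked imprinted RNA, against 48.99 CPM in the 7 cells. Id1, an inhibitor of helix-loop-helix factors, had medians of 766 and 5.81 CPM, Onecut2 had 591 and 6.74 CPM, and Notch2 had 489 and 30.9 CPM. Fmo2 reached 50 CPM in 7 of the 8 cells and 0 of the 7. Summed over the growth factor, WNT and BMP list, medians were 1775 CPM in the 8 cells and 582 CPM in the 7, against 584 CPM in the Fev class. Among duct keratins, Krt7 had medians of 51.98 and 127.7 CPM, Krt18 had 118.6 and 107.2 CPM and Krt19 had 3.43 and 5.05 CPM, all with overlapping ranges.

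Endocrine RNA sat on the other side of that division. Chgb had 5.43, 33.5 and 45.3 CPM in the 8 cells high in Spp1, against 11.7, 100 and 3958 CPM in the 7 others. Isl1 stayed at or under 6.16 CPM in all of the 8 and reached 375, 539 and 1552 CPM in 3 of the 7. Those 3 cells were also the Sox9 cells with Pyy, the gene of the gut and islet hormone peptide YY, at 1000 CPM or more (64832, 2552 and 43502 CPM), and the last of them had only 25769 reads. Btbd17 and Hes6 did not follow the division closely: Btbd17 had medians of 366 and 96.9 CPM and Hes6 of 247 and 231.1 CPM. Neurod1 had medians of 93.1 and 182.98 CPM, with overlapping ranges. Across all 48 Gcg-low cells, none combined 1000 CPM of Spp1 with 1000 CPM of another hormone.

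The Fev class divided in a similar way. At 100 CPM of Btbd17 and 200 CPM of Chgb, levels again chosen after the values were seen, 5 of its 11 cells passed the Btbd17 level only and 6 the Chgb level only, and none passed both or neither. The nearest Btbd17 values in the class were 102.2 CPM above the level and 80.8 CPM below it, so a somewhat lower level would alter this split. Across the 48 cells, 3 passed both levels. Isl1 had 1.86, 3.48, 30.9, 46.98 and 918 CPM in the 5 cells with Btbd17, against 410, 1328 and 3288 CPM (lowest, median, highest) in the 6 with Chgb. The cell with 918 CPM was the only overlap, and it also had 2321 CPM of Pyy. Pax6 had medians of 11.8 and 1101 CPM, Pcsk2, a hormone-processing protease, 7.72 and 1250 CPM, and Scgn, a calcium sensor of granules, 4.17 and 679 CPM.

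Hes6, Nkx2-2 and Pax4 were on the Btbd17 side of the Fev class, while other early genes were not. Hes6 had 328, 436, 546, 1090 and 1482 CPM in the 5 cells with Btbd17, against 8.59, 150.9 and 262 CPM in the 6 with Chgb, with no overlap. Nkx2-2, needed for beta and alpha cell fate, had medians of 340 and 83.6 CPM and did not overlap either, since its lowest value was 228.1 CPM in the 5 cells and its highest 113.7 CPM in the 6. Pax4 reached 50 CPM in 3 of the 5 and 1 of the 6 cells, with 744, 742, 110.7 and 50.99 CPM. Neurod1 (medians 520 and 328 CPM) and Fev itself (539 and 227.7 CPM) were present on both sides with overlapping values. Neurog3 was at 0 in all of the 5 cells and at most at 1.44 CPM in the 6. Summed over a list, genes of the Neurog3 stage, which include Btbd17, had medians of 3360 CPM in the 5 cells and 1010 CPM in the 6. The reverse held for genes of tip and early progenitor cells (217.6 and 1395 CPM), of duct and trunk (137.4 and 1003 CPM) and of the Id and HES families (891 and 1722 CPM), with overlapping ranges. Chga, unlike Chgb, was found throughout, with 652 CPM as the lowest value among all 11 cells. Median totals were 1074561 reads in the 5 cells and 751167 in the 6, and 1 of the 5 and 0 of the 6 were female.

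**Figure D4:**
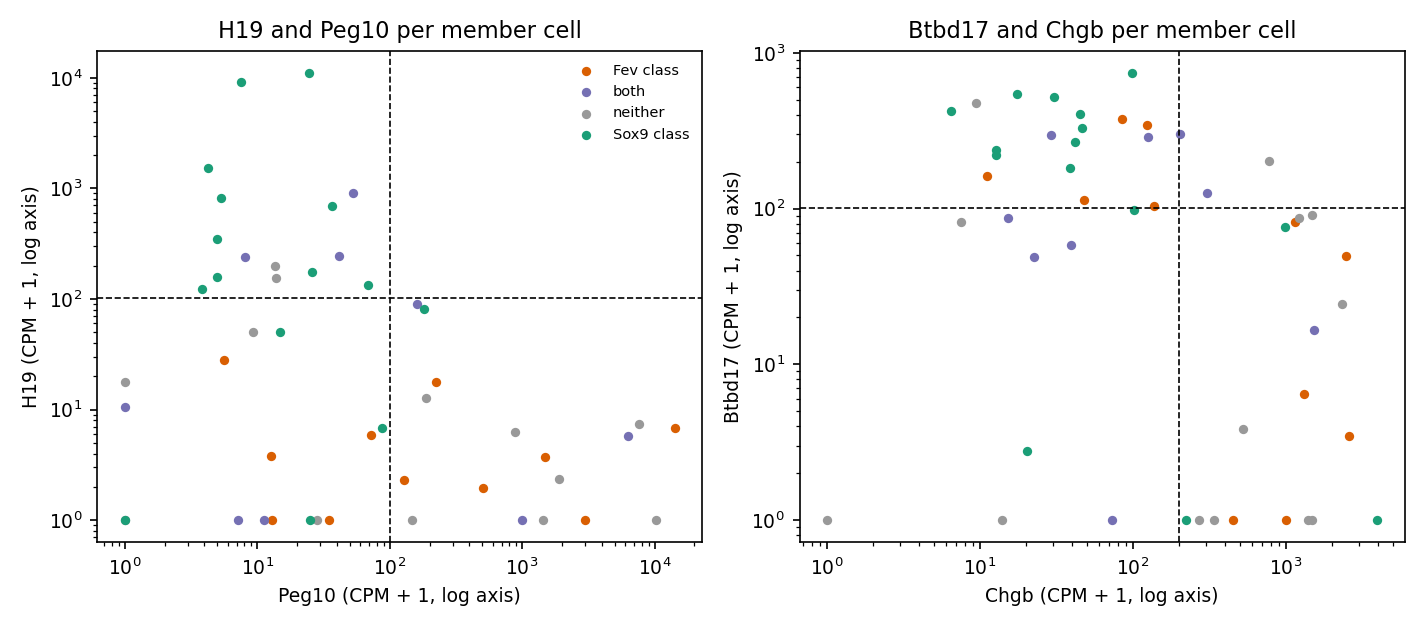
H19 against Peg10 (left) and Btbd17 against Chgb (right) in each Gcg-low cell of Neurod1OE set 3, coloured by class (both: Sox9/Fev class), as CPM + 1 on log axes, with dashed lines at 100 CPM for H19, Peg10 and Btbd17 and 200 CPM for Chgb. No Gcg-low cell lies in the upper right corner of the left panel and 3 do in the right panel, of which 0 belong to the Fev class. In the left panel, cells with 89.8 and 80.7 CPM of H19 lie close under that corner.

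The 9 cells with both Sox9 and Fev did not share a common profile. Sox9 ranged over 57.7, 152.5 and 1245 CPM in them and Fev over 102.7, 229.99 and 1258 CPM. The highest Neurog3 of all 447 cells, 3053 CPM, belonged to 1 of the 9, together with 846 CPM of Pax4, 674 CPM of Hes6, 356 CPM of Spp1 and 13.8 CPM of Neurod1, so the cell richest in Neurog3 was among those poorest in Neurod1. Pax4 reached 50 CPM in 5 of the 9 cells, and the highest values were 846 and 817 CPM. Hes6 was at 124.7 CPM or more in all 9, with a median of 343 CPM. By contrast, 1 of the 9 carried 6440 CPM of Pyy, 13454 CPM of Iapp, the islet amyloid gene, and 1521 CPM of Chgb, and 2 were cycling, with 452 and 106.3 CPM of Mki67. This class was the shallowest, with 2 of 9 cells under 165298 reads.

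Cells with neither Sox9 nor Fev had more endocrine RNA than the Sox9 class and less RNA of the Neurog3 stage. Set over the Sox9 class, 1747 of 10496 genes (16.6%) were at least 2-fold higher and 1983 (18.9%) at least 2-fold lower, with a median of -0.07. Of 20 pan-endocrine genes, 15 were higher and 0 lower (median 2.36). Isl1 had 0, 184.2 and 2270 CPM in the cells with neither, against 0, 4.96 and 1552 CPM in the Sox9 class (log2 ratio 3.70, 1.87 with each cell weighted equally and 4.67 without the top cells), and Chgb had medians of 527 and 40.7 CPM (log2 ratio 3.01, and 1.01 with each cell weighted equally). Of 16 measured genes of the Neurog3 stage, 0 were higher and 11 lower, including Btbd17 (medians 2.87 and 236 CPM, log2 ratio -2.23, and -2.93 without the top cells) and Hes6 (126.5 and 231.1 CPM, -1.21). With the Sox9 limit at 100 CPM neither gene differed by 2-fold (-0.83 for Btbd17 and -0.77 for Hes6), and Hes6 did not at equal depth (-0.78), with the Fev limit at 50 CPM (-0.85) or with each cell weighted equally (-0.95). Pax4 did not reach 50 CPM in any cell with neither. Nkx6-1, a trunk and beta cell factor, had medians of 9.57 and 47.2 CPM and a log2 ratio of -2.47 (-1.24 over both genotypes and sets). Spp1 had a log2 ratio of -3.59, but 87.96% of its reads came from a cell with 8439 CPM, and the ratio was -6.10 without the top cells and -0.79 with the Sox9 limit at 100 CPM. The cells with neither were 7 females and 6 males, the Sox9 cells 3 females and 12 males, and the part of sex in these values was not tested.

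Set over the cells with neither, the Fev class had 1800 of 10131 genes (17.8%) at least 2-fold higher and 1802 (17.8%) at least 2-fold lower, with a median of 0.05. Of 16 measured genes of the Neurog3 stage, 6 were higher in the Fev class and 0 lower. Hes6 had medians of 262 CPM in the Fev class and 126.5 CPM in cells with neither (log2 ratio 2.45), Nkx2-2 had 113.7 and 18.9 CPM (1.68, and 2.28 without the top cells), and Nkx6-1 had 53.7 and 9.57 CPM (1.79, 0.88 with the Sox9 limit at 100 CPM and 0.55 over both genotypes and sets). Pax4 had a log2 ratio of 5.22, with 4 of 11 Fev cells and 0 of 13 cells with neither at 50 CPM. Pan-endocrine genes were close, with 2 of 20 higher and 0 lower (median 0.38).

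The 13 cells with neither were mixed, and were divided by levels chosen after the values were seen. In 6 of them another hormone reached 1000 CPM: all 6 had Pyy (1182 to 40462 CPM), 2 had Sst, the somatostatin gene, at 37257 and 28032 CPM together with 1935 and 3694 CPM of Hhex, the delta cell factor, 1 had 66866 CPM of Ghrl, the ghrelin gene, and 1 had 22697 CPM of Ppy, pancreatic polypeptide. The last of these also held 15903 CPM of acinar genes, as did a Sox9 cell with 64832 CPM of Pyy (16381 CPM), and the part of acinar RNA in their values was not tested. A further 2 cells, 1 female and 1 male, had 982 and 484 CPM of Sox10 and 3704 and 4510 CPM of Ednrb, both genes of Schwann cells and their precursors, with 2.80 and 0 CPM of Neurod1 and 316 and 254 CPM over the whole pan-endocrine list. Elsewhere among Gcg-low cells Sox10 reached at most 2.22 CPM, and all 32 Gcg cells were at 0. The other 5 cells had between 1249 and 17527 CPM of pan-endocrine genes, and 1 of them was the cell with 8439 CPM of Spp1. Without the 2 Sox10 cells, the comparison with the Sox9 class gave 1787 higher and 2215 lower genes.

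**Figure D5:**
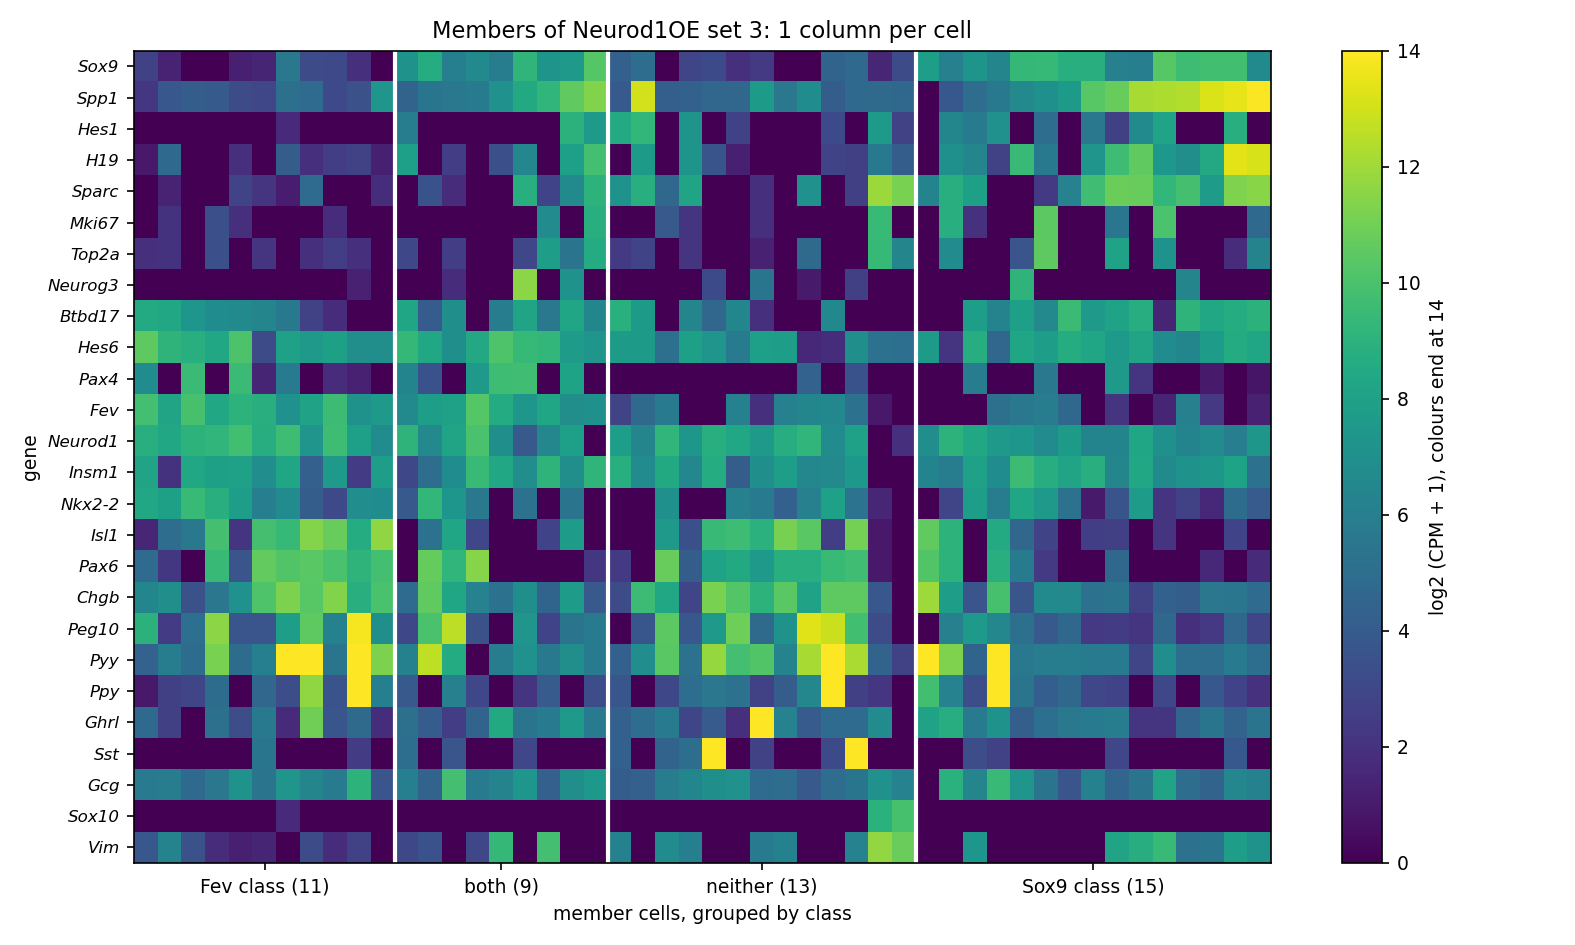
Level of 26 genes (rows) in the 48 Gcg-low cells of Neurod1OE set 3 (columns, grouped as Fev, Sox9/Fev (both), neither and Sox9), as log2(CPM + 1), with the colour scale ending at 14. Blocks of trunk genes lie over part of the Sox9 class, endocrine genes over the Chgb side of the Fev class and most cells with neither, and Sox10 over 2 cells with neither.

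Hormones other than glucagon were high in only part of the Gcg-low cells with endocrine RNA. None of Pyy, Ppy, Ghrl, Sst and insulin (Ins1 and Ins2 summed) reached 1000 CPM in 6 of 11 Fev cells, 8 of 9 Sox9/Fev cells, 7 of 13 cells with neither and 12 of 15 Sox9 cells, against 1 of 32 Gcg cells. Pyy was the commonest, at 1000 CPM in 15 of 48 Gcg-low cells and 31 of 32 Gcg cells. Ppy passed that level in 4 and 5 cells, Ghrl in 2 and 7, and Sst in 2 and 0. Insulin did so in 0 of 48 Gcg-low cells, which allows up to 3 counts, or 6.25%, and in 1 of 32 Gcg cells. Across the classes Pyy varied widely, with medians of 65.3 CPM (Fev), 70.8 (Sox9/Fev), 908 (neither) and 54.6 (Sox9), and 4870 CPM in Gcg cells. Acinar cells of the set had such a hormone in 4 of 15 cells. That class was mixed, with 330, 594 and 35936 CPM (lowest, median, highest) summed over the pan-endocrine list. Its hormone cells therefore do not show whether hormone RNA occurs without an endocrine profile.

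Proliferation was found outside the Fev class. Mki67, a mark of cycling cells, together with Top2a, a topoisomerase of dividing cells, reached 50 CPM in 0 of 11 Fev cells, 2 of 9 Sox9/Fev cells, 1 of 13 cells with neither and 3 of 15 Sox9 cells, against 1 of 32 Gcg cells. The cycling cell with neither was a Sox10 cell. Of 12 measured genes of G2 and M phase, 12 were lower in the Fev than in the Sox9 class, with a median log2 ratio of -6.03, and Mki67 stood at -6.34 (-5.45 without the top cells). No Fev cell exceeded 29.5 CPM over the whole G2 and M list, and the highest Sox9 cell had 10910 CPM. Of 11 measured S phase genes, 9 were lower in the Fev class (median -3.94), by ratios of summed counts. Summed over that list per cell, the classes overlapped, at 49.2 to 549.8 CPM (Fev) and 113.3 to 7096 CPM (Sox9). Medians of the cells lay closer than the ratios of sums. The difference in Mki67 between Gcg-low and Gcg cells, a log2 ratio of 4.34, was 0.14 over both genotypes and sets.

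H19 and Peg10, 2 imprinted genes expressed from opposite parental copies, did not both reach 100 CPM in any Gcg-low cell. H19 had 0, 2.71 and 27.01 CPM in the Fev class, against 0, 157.8 and 11020 CPM in the Sox9 class (log2 ratio -8.08). Peg10 had 4.63, 126.9 and 14221 CPM in the Fev class, against 0, 13.8 and 182.02 CPM in the Sox9 class (log2 ratio 5.81, 4.65 without the top cells, and 0.56 over both genotypes and sets). H19 reached 100 CPM in 15 of 48 Gcg-low cells and Peg10 in 17, and 0 cells reached both. This depended on the level, since some cells lay just under it for H19. A Sox9/Fev cell had 89.8 CPM of H19 with 158.9 CPM of Peg10, and a Sox9 cell had 80.7 CPM with 182.02 CPM. Among Gcg cells 31 of 32 had Peg10 at that level, 2 had H19 and 2 had both. Peg10 had a median of 147.01 CPM in the cells with neither, with a log2 ratio over the Sox9 class of 6.63 (1.06 over both genotypes and sets). The higher H19 of Gcg-low over Gcg cells (log2 ratio 5.76) held among male cells (6.83), while among female cells the ratio was 0.13. Igf2, a growth factor gene beside H19 on the chromosome, was lower in cells with neither than in the Sox9 class (log2 ratio -4.65), which turned to 0.61 with the Sox9 limit at 100 CPM.

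Markers of endothelial and immune cells were low in most cells, while mesenchymal genes were higher in part of the Gcg-low cells. Summed over 9 endothelial genes, Gcg-low cells had 0 to 414 CPM (median 0.615) and Gcg cells 0 to 188.9 CPM (2.05). Summed over 9 immune genes they had 0 to 87.4 and 0 to 217.8 CPM. Summed over 12 mesenchymal genes, Gcg-low cells had 0 to 3950 CPM (median 274) and Gcg cells 2.92 to 581 CPM (99.6). The Sox10 cells, with 1796 and 3339 CPM of Vim, were among the highest Gcg-low cells. Cells of other classes also passed every Gcg cell, such as a Sox9/Fev cell at 2404 CPM, a Fev cell at 2019 CPM and a Sox9 cell at 1956 CPM. Of 3 measured genes of the list, 2 (Vim and Mfap4) were higher and 1 (Col1a2) lower, with a median log2 ratio of 5.09. Summed over 21 acinar genes without Cpa1, Gcg-low cells had 25.1 to 16381 CPM (median 131.5) and Gcg cells 0 to 11748 CPM (361), against 6098 to 209014 CPM in acinar cells.

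Outside Neurod1OE set 3, all 7 Gcg-low cells were hormone cells. Each had at least 1000 CPM of Pyy, which ranged from 2383 to 141795 CPM over the 3 Ngn3KO and 4 Neurod1OE cells of set 2, and none reached 1000 CPM of Spp1. Among the 3 Ngn3KO cells, 1 had 79387 CPM of Ins2 and 1 had 12191 CPM of Ghrl. Neurog3 in the 3 Ngn3KO cells was 3.81, 0 and 0 CPM. Over whole genotypes Neurog3 had reads in 43 Ngn3KO and 32 Neurod1OE cells of set 2, and in 7 of 30 and 20 of 95 cells of set 3. Set 2 held more Ngn3KO than Neurod1OE cells, so its counts alone do not compare the genotypes. The share of cells with reads was lower in Ngn3KO in set 2 and slightly higher in set 3. Which part of the gene is floxed is not stated in the sources used here, so these reads do not check the deletion. Trunk and precursor profiles without hormone thus rest on the Neurod1OE cells of set 3 alone, which counted as 1 sample. The Neurod1OE cells of set 2 and the Ngn3KO cells of set 3 held none, and 29 of the 30 Ngn3KO cells of set 3 were acinar cells.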

How the data were processed

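Single GFP-positive cells of E15.5 mouse pancreas were profiled by Smart-seq3. The authors deposited whole-number read counts per gene and cell, 40824 genes in 447 cells. Trimmomatic 0.39, HISAT2 2.1.0, featureCounts 2.0.0 and the build mm10 are named, per the submitters' processing notes. The sources used here do not say whether counting used strand, so overlapping and antisense genes cannot be told apart. The counts are reads, not molecules. The files hold 0 mitochondrial genes, and 92 spike-in names with 24 reads in all cells, which were left out of totals.

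CPM were computed per cell, and counts were summed per class for ratios, as log2 of CPM plus 1 on each side. A gene counted as measured from 10 CPM, if detected in 20% or more of the cells of either class, and called at 2-fold. Totals ranged from 25769 to 2788066 reads. Intervals are exact at 95%, Poisson for sums and Clopper-Pearson for shares, and a share of 0 is given the limit of 3 counts. To compare genes detected, cells were thinned to 165298 reads, the 10th percentile of depth, leaving out shallower cells (4 Gcg-low and 5 Gcg cells). No doublet caller was run, and no step is recorded that removed doublets. A set of 34 gene lists was described by counts and medians, with Gcg, Cpa1, Sox9 and Fev left out. Genes were named by rule: fixed markers, up to 12 leading genes in each direction from 50 CPM, detected in 50% or more of cells, that stayed 2-fold apart without the top cell of each class, and up to 4 per list. Other genes were chosen after their values were seen, as were the divisions within classes. Some genes of the rule and lists are not reported here by name. The members and lists were chosen with earlier results of these data known. Python 3.11.15, numpy 2.4.6, scipy 1.17.1, pandas 2.3.3 and matplotlib 3.10.9 were used, with edgeR 4.0.16 and DESeq2 1.42.0 (R 4.3.3) for scaling factors of the deposited counts only. The ratio step was tested on simulated data.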

Additional observations from a re-analysis of the deposited data

How the results depend on the processing

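Alternatives changed the limits of the rule, the filter, the pseudocount, the scaling, the depth, and the cells used. Those without the Sox10 cells, without cells under 100000 reads and without cells with other hormones were chosen after seeing the data. Of 954 values for single genes under an alternative, 38 lost the 2-fold difference of the main value, 75 had a log2 ratio moved by over 1.5 times and 4 changed sign, among them Neurod1 for Gcg-low over Gcg cells, under 2-fold in each. Among counts 19 moved. A number of genes counted as moved beyond 1.5 times, and a number of cells when it left the exact interval of the main value. With the Sox9 limit at 100 CPM, the log2 ratio of cells with neither over the Sox9 class turned to 0.61 for Igf2 and 0.66 for Pax4, and that of Btbd17 for the Fev class over cells with neither to -0.33. By that limit the class with neither holds 20 cells over both sets, against 15, since Sox9 cells under 100 CPM pass into it. Spp1 in the cells that pass was 15341, 4538, 1733, 49.4 and 13.5 CPM. Btbd17 in the same order was 517, 419, 266, 75.5 and 0 CPM. Their part in these ratios was not tested. Without a filter on low counts, higher and lower genes numbered 3439 and 2682 (Gcg-low over Gcg cells), 3177 and 3802 (Fev over Sox9 class), 3238 and 3397 (neither over Sox9 class) and 3033 and 3630 (Fev class over neither). With a filter of 50 CPM they numbered 808 and 484, 954 and 836, 717 and 754, and 823 and 689, where fewer genes were measured. Gcg-low over Gcg cells gave 2150 lower genes among female cells and 737 over both genotypes and sets. A Gcg limit of 2000 CPM gave 24 cells with neither, outside the interval of the 15 by the rule. A Fev limit of 50 CPM gave 9 cells with neither. With a Fev limit of 200 CPM there were 6 Sox9/Fev cells, against 10 by the rule. Both of these numbers stayed inside their interval. CPM without mitochondrial genes could not be run, since the files hold none, and classes were not compared among female cells, with under 5 in some. No paired analysis was possible because each genotype and set counted as 1 sample and its cells are no replicates. Depth limits rare genes, such as Neurog3, in shallow cells.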

Other observations

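Genes of the liver stood lower in Gcg-low cells. Of 8 measured hepatic genes, 1 (Alb) was higher and 7 were lower than in Gcg cells of Neurod1OE set 3, with a median log2 ratio of -2.83. The 7 included Apoa1, Apoa2 and Ttr, a transport protein that islet alpha cells also make. Genes of the unfolded protein response did not pass the 2-fold limit in either direction, with 0 of 10 measured genes higher, 0 lower and a median of -0.15.

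Hormones of the gut were found in some Gcg-low cells of both sets. In set 2 an Ngn3KO cell held 13796 CPM of Gast, the gastrin gene, and 6140 CPM of Cck, the cholecystokinin gene. A Neurod1OE cell of set 2 held 18930 CPM of Gast. In Neurod1OE set 3 a Sox9 cell held 2720 CPM of Gast and another, with 25769 reads, held 1785 CPM. Levels in Gcg cells are not reported here. The Ngn3KO cell with 79387 CPM of Ins2 also held 6410 CPM of Ins1 and 238 CPM of Nkx6-1, a beta cell factor.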
